A study of Homo sapiens with 6 samples.

Results

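The genes described here are 43 splicing regulators, RNA-binding proteins that decide which exons enter a messenger RNA. They were taken by gene symbol from a fixed list of hnRNP proteins, SR proteins and further regulators, and all 43 were among the 28979 gene IDs of the count files. The libraries came from MDA-MB-231, an established line of human triple-negative breast cancer cells. They fell into 3 libraries labelled Con and 3 labelled Ang. By the series design, cells of this line were given exosomes, small secreted vesicles, of normal or of hypertrophic heart muscle cells, to look for genes targeted by microRNAs. No label says which of these exposures Con or Ang is, so both groups keep their labels here, and both are unmodified MDA-MB-231 cells as far as the labels go. No label gives a dose, a time or separate cultures. The p-values below therefore rest on differences among the libraries of a group, and those differences may be technical.

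As background, SR proteins bind mostly within exons through RNA recognition motifs and recruit the spliceosome, the particle that removes introns, through a domain rich in arginine and serine. The hnRNP proteins coat nascent transcripts and often oppose the use of an exon. The branch point and 3′ splice site factors mark the end of each intron, and tissue regulators such as PTBP1, RBFOX2 and MBNL1 shift exon choice between cell types, among them epithelial and mesenchymal cells. Many of these genes limit their own level by splicing a poison exon into their transcripts, which are then removed by nonsense-mediated decay. Counts per gene, as used here, do not separate such isoforms.

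Total counts per library ran from 3369212 to 5437190. The members together held 0.632% to 0.730% of the counts of a library, with the highest share in Con replicate 2. That library stood apart from the other 5. Over 250 non-coding genes lying under exons of a protein-coding gene on the other strand, the median number of counts per base in the non-coding gene was 23.2 times that of the coding gene, against 32.9 to 41.1 times elsewhere. It also had 28.7% of its counts in genes free of exons on the other strand, against 21.7% to 25.5%. The mesenchymal markers for which this line is known, such as CD44 and FN1, had high counts. Vimentin (VIM) had 928 ± 152 CPM in Con and 1032 ± 49.6 in Ang. Of 8 such markers SPARC alone was near absent, with 6 counts in all. VIM has 24.4% of its exon bases across from exons on the other strand, CD44 has 0.840% and FN1 0.0%. Among 6 epithelial markers 5 were in the files and 3 could be tested. The epithelial splicing regulator ESRP1 had 4 counts and CDH1 had 24 counts in all. The epithelial keratin KRT19 was present at 99.9 ± 28.7 CPM in Con and 117 ± 24.2 in Ang. CLDN4 was present at 39.0 ± 6.14 and 40.6 ± 4.01 CPM, and EPCAM at 9.83 ± 0.362 and 9.76 ± 0.717 CPM. Of 12 heart muscle markers 9 were in the files and 2 could be tested. These were TTN (258 ± 56.9 CPM in Con and 229 ± 20.4 in Ang) and NPPA (10.7 ± 5.77 and 8.31 ± 3.57 CPM), which have 15.5% and 25.5% of their exon bases across from exons on the other strand. The other 7 had 1 to 19 counts over all libraries, with 1 each for MYH6, MYL2 and RYR2. CPM is the count scaled to a common library size, corrected by TMM, the trimmed mean of M values, and means are given ± SD over the 3 libraries of a group.

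No splicing regulator passed the threshold for a difference between the groups. Of the 43 members 42 had enough counts to be tested, all but U2AF1. The quasi-likelihood test of edgeR, adjusted by Benjamini-Hochberg over 14547 genes, called 0 members, where it called 0.0% of all genes tested. At an unadjusted p under 0.05 it counted 2 members, SRSF6 and SRSF8, both with lower values in Ang. In bulk RNA, fewer cells with a transcript and less of it per cell cannot be told apart. Over all genes 3.4% met that limit, 1.98% with lower values and 1.42% with higher ones. DESeq2 and limma-voom likewise called 0 and counted 2. The log2 fold change, Ang minus Con, was above 0 for 18 members and below 0 for 24, and with relative log expression (RLE) scaling above 0 for 23 and below 0 for 19, since many values lie next to 0. Over all genes 49.2% were above 0. Its median was -0.01 for the members and -0.01 for all tested genes.

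The members were measured more precisely than most genes. The SE on the log2 scale had a median of 0.19 for members and 0.30 for all tested genes. The genes in this and the next comparisons were not matched to the members for level of counts, on which the SE depends. For 40 of the 42 tested members the 95% confidence interval ran neither below 2-fold lower nor above 2-fold higher, against 64.2% of all genes. The exceptions were SRSF6 and SRSF8. For 33 members the interval lay within 1.5-fold, against 28.3% of all genes. The libraries of the 2 groups did not overlap for 4 members, beside 8.16% of all genes. SRSF6 and SRSF8 lay lower in every Ang library than in any Con library, and TRA2A and CELF1 lay higher. Over all genes 4.54% lay lower in this way and 3.62% higher.

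**Figure D1:**
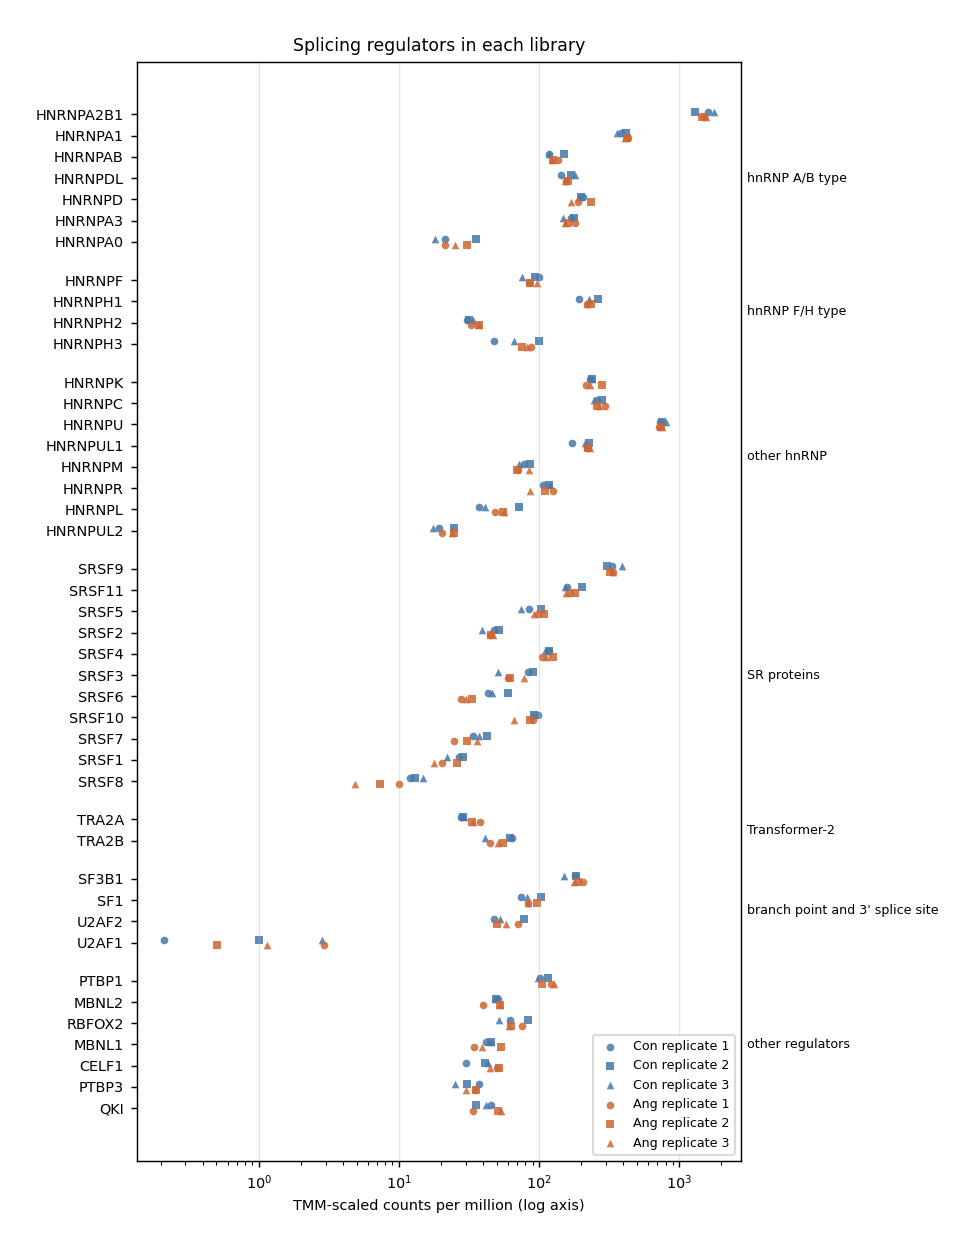
CPM (TMM-scaled counts) of the 43 splicing regulators in each of the 6 libraries, on a log axis, ordered by role and by counts per kilobase within a role. Blue marks are Con and orange marks are Ang, and the shape gives the replicate. HNRNPA2B1 is at the top of its group and U2AF1, with 1 to 10 counts per library, lies far to the left of all others.

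**Figure D2:**
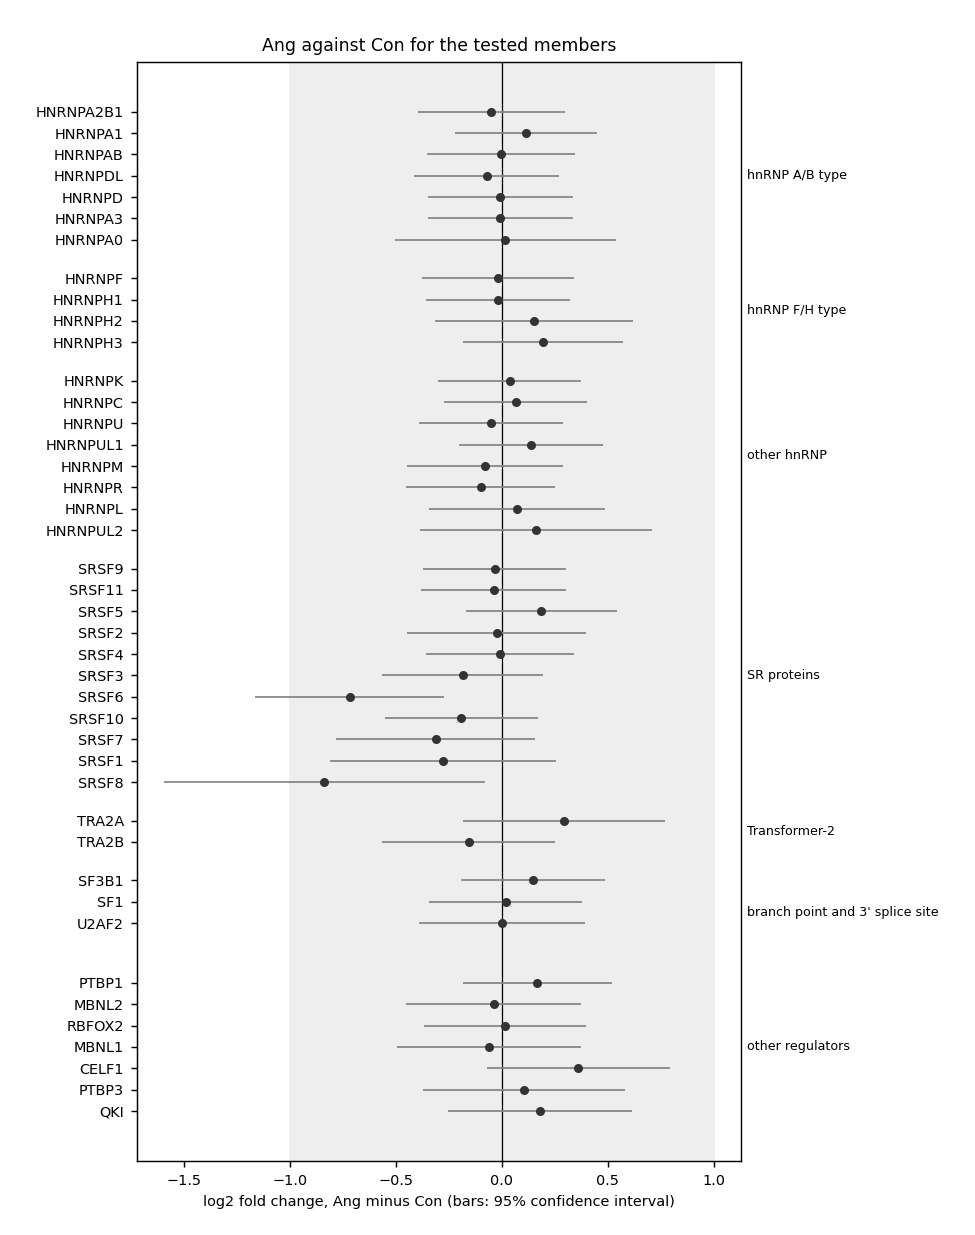
Log2 fold change, Ang minus Con, of the 42 tested splicing regulators (points) with the 95% confidence interval from the edgeR fit (bars). The grey band marks 2-fold in both directions, and the bars of SRSF6 and SRSF8 leave it on the lower side.

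Among the SR proteins, 10 of 11 had a log2 fold change below 0, with a median of -0.18, and 9 of 11 with RLE scaling. The count was 7 to 10 of 11 when 1 library was left out, with 7 without Con replicate 2, and the median was then -0.23 to -0.07, nearest to 0 without Ang replicate 3. Leaving aside SRSF6 and SRSF8, which were singled out after their values were seen, the others had 8 of 9 below 0 and a median of -0.04. With 1 library left out these were 5 to 8 of 9, with 5 without Con replicate 2, and medians of -0.14 to -0.04, lowest without Con replicate 3. The summed level of the 11 genes was 1057 ± 43.6 CPM in Con and 999 ± 28.8 CPM in Ang. Of this, SRSF9 alone gave 342 ± 42.4 and 333 ± 10.1 CPM, with 46.2% of its exon bases across from exons on the other strand. Without SRSF6 and SRSF8 the sums were 994 ± 36.1 CPM in Con and 961 ± 26.0 CPM in Ang.

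SRSF6, an SR protein with a pair of RNA recognition motifs that is known for control of wound healing and tumour growth in skin, carried the smallest unadjusted p of the members. It had 43.5, 59.7 and 46.5 CPM in Con replicates 1 to 3, and 27.6, 33.5 and 30.04 CPM in Ang replicates 1 to 3. All 3 Ang libraries lay below all 3 Con libraries, and Con replicate 2 was the highest. The log2 fold change was -0.72 ± 0.23, with a 95% interval of the fold of 0.446 to 0.829. The unadjusted p was 0.00177, and the adjusted p over all genes was 0.999 by edgeR's quasi-likelihood test. Without Con replicate 2 the log2 fold change was -0.56 ± 0.23, with an adjusted p of 0.301 by edgeR.

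No exon on the other strand overlaps SRSF6, and 5.97% of its 50-base words also occur in other genes. The stretch below is shown because a processed pseudogene, SRSF6P2 on chromosome 17, holds the same 120 bases without a difference, so that reads from it cannot be assigned by sequence. It lies at chr20:43460085-43460204 on the plus strand of GRCh38, within the coding sequence, and is given 5′ to 3′.
SRSF6: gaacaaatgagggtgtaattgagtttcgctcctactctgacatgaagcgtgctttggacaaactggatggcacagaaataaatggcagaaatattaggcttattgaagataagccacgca
The pseudogene itself had 7 counts over all libraries, 6 of them in Con, against 1038 for SRSF6.

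SRSF8, an expressed intronless relative of SRSF2, had 12.04, 13.02 and 14.8 CPM in the Con libraries and 9.98, 7.31 and 4.91 CPM in the Ang libraries. Here too the groups did not overlap, and Ang replicate 3 was the lowest. The values rest on 181 counts in Con and 80 in Ang, the fewest of the tested members. The log2 fold change was -0.84 ± 0.38, with an interval of the fold of 0.331 to 0.946. By edgeR the unadjusted p was 0.0304 and the adjusted p 0.999. Leaving out Ang replicate 3 gave -0.62, Ang replicate 2 -0.83 and Con replicate 3 -0.77, each with an unadjusted p above 0.05.

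SRSF8 and SRSF2 are shown side by side, since SRSF2 is the closest relative of SRSF8 among the members and the genes are compared as a pair below. In the closest stretch of 120 coding bases the genes differ at 11 bases, which are in capitals. The SRSF8 stretch lies at chr11:95067235-95067354 on the plus strand and the SRSF2 stretch at chr17:76737033-76737152 on the minus strand of GRCh38, each written 5′ to 3′ on its coding strand.
SRSF8: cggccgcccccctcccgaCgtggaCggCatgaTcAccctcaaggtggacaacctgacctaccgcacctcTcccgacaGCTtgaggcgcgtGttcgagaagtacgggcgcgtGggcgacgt
SRSF2: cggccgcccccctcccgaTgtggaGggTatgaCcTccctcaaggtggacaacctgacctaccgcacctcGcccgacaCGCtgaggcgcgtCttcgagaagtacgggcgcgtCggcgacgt
SRSF2, a component of nuclear speckles, had 47.9, 51.9 and 39.0 CPM in Con and 44.9, 45.1 and 47.1 CPM in Ang. Its Ang libraries lay inside the Con range, and the log2 fold change was -0.02 ± 0.21. Exons on the other strand cover 36.7% of its exon bases.

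The other SR proteins had overlapping groups. SRSF9 was the most abundant per length, at 91.2 ± 11.3 CPM per kilobase of exon in Con and 89.0 ± 2.71 in Ang. Exons on the other strand lie across from 46.2% of its exon bases, and among SR genes free of such overlap SRSF11 was the highest, at 20.3 ± 3.25 and 19.8 ± 1.601 CPM per kilobase. The CPM of SRSF9 were 330, 306 and 389 in Con and 340, 322 and 338 in Ang, a log2 fold change of -0.03 ± 0.17. SRSF7, which adds a zinc knuckle to its recognition motif, had 33.6, 42.3 and 37.4 CPM in Con and 24.6, 30.5 and 36.1 CPM in Ang (-0.31 ± 0.24). SRSF1, the founding SR protein and an oncogene in breast tissue, had 26.8, 28.7 and 22.02 CPM in Con and 20.2, 26.0 and 17.9 in Ang (-0.28 ± 0.27). Only Ang replicate 2 of SRSF1 lay inside the range of the Con libraries. SRSF10, which turns into a general repressor of splicing on heat shock, had 98.4, 91.6 and 88.7 CPM in Con and 90.4, 87.0 and 66.7 in Ang (-0.19 ± 0.18). SRSF5 was the SR gene with a value above 0, with 85.1, 103 and 73.9 CPM in Con and 97.7, 109 and 91.6 in Ang (0.19 ± 0.18). SRSF3, which also links splicing to export, had 83.8, 90.1 and 51.3 CPM in Con and 59.9, 62.0 and 77.7 in Ang (-0.18 ± 0.19), so that Con replicate 3 was the lowest of all 6 libraries. SRSF4, a close relative of SRSF6, had 118, 117 and 111 CPM in Con and 105, 127 and 113 in Ang (-0.01 ± 0.18). SRSF11 had 172 ± 27.5 and 168 ± 13.6 CPM (-0.04 ± 0.17).

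The Transformer-2 proteins TRA2A and TRA2B are SR-like and bind purine-rich exonic enhancers. TRA2A, the more abundant per length, had 27.9, 28.9 and 29.3 CPM in Con and 38.1, 33.5 and 33.8 CPM in Ang. Every Ang library lay above every Con library, and the Con libraries were close together, with an SD of 0.715 CPM. The log2 fold change was 0.29 ± 0.24, with an interval of the fold of 0.880 to 1.71 and an unadjusted p of 0.228 by edgeR. TRA2B had 64.2, 62.4 and 41.2 CPM in Con and 44.9, 55.2 and 51.1 in Ang (-0.16 ± 0.21), and its groups overlapped.

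**Figure D3:**
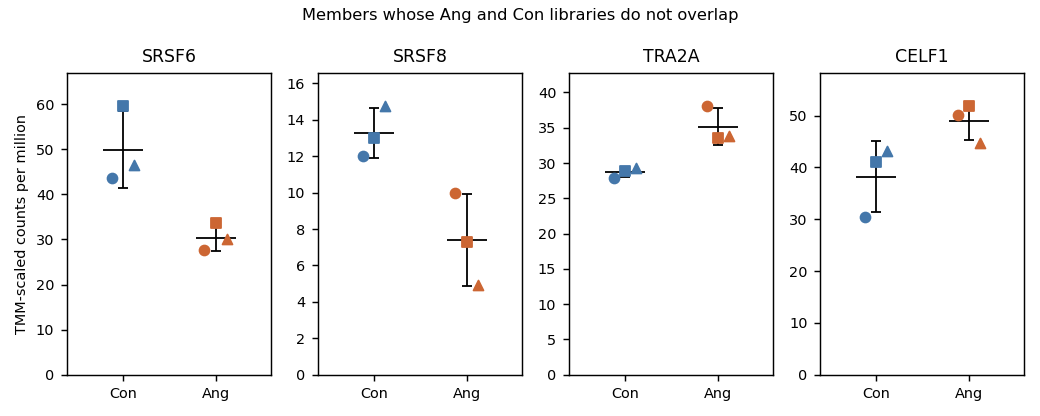
CPM (TMM-scaled counts) of SRSF6, SRSF8, TRA2A and CELF1, the members whose Con (blue) and Ang (orange) libraries do not overlap. Circles, squares and triangles are replicates 1, 2 and 3, horizontal lines are means and bars are SD over 3 libraries. SRSF6 and SRSF8 lie lower in Ang and TRA2A and CELF1 higher, and none passed the adjusted threshold.

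The hnRNP A/B type proteins bind splicing silencers and AU-rich elements. Of the 7 genes, 2 had a log2 fold change above 0, and all lay between -0.07 and 0.11. HNRNPA2B1, which is also known for sorting some microRNAs into exosomes, was the most abundant member per length, at 168 ± 25.5 CPM per kilobase in Con and 162 ± 5.34 in Ang. Exons of CBX3 on the other strand lie across from 3.97% of its exon bases. CBX3 held 0.146 to 0.207 times the counts per base of HNRNPA2B1. Among members free of such overlap HNRNPA1 was the highest, at 76.6 ± 5.64 and 83.0 ± 2.20 CPM per kilobase. The CPM of HNRNPA2B1 were 1605, 1297 and 1760 in Con and 1495, 1456 and 1555 in Ang. The Ang libraries sat inside the Con range, and the log2 fold change was -0.05 ± 0.18, with an interval of the fold of 0.760 to 1.23. HNRNPA1, the classical exon silencer, had 388, 420 and 363 CPM in Con and 433, 423 and 411 in Ang (0.11 ± 0.17), with 1 Con library inside the Ang range. HNRNPD, which promotes decay of AU-rich messages, had 206, 199 and 193 CPM in Con and 191, 235 and 169 in Ang. Its relative HNRNPDL had 145, 169 and 181 CPM in Con and 155, 161 and 155 in Ang, inside the Con range. HNRNPA3 (166 ± 15.1 and 165 ± 13.5 CPM), HNRNPAB (129 ± 18.6 and 129 ± 7.11 CPM) and HNRNPA0 (25.1 ± 9.40 and 25.7 ± 4.57 CPM) differed by less than their spread.

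HNRNPA1 shares 23.0% of its 50-base words with other genes, the largest share after U2AF1, and HNRNPA3 shares 17.3%. The files hold 22 HNRNPA1 pseudogenes. Their summed counts came to 8.33% to 15.5% of those of HNRNPA1 in Con and 7.45% to 8.80% in Ang, with overlapping groups. Of the 3 tested, HNRNPA1P59 had 80, 52 and 63 counts in Con and 19, 24 and 16 in Ang. HNRNPA1P49 had 55, 25 and 27 counts in Con and 27, 37 and 47 in Ang. HNRNPA1P10 holds 120 coding bases of the parent without a difference and had 11.9 ± 2.51 CPM in Con and 8.69 ± 4.29 in Ang. None of the 3 passed the adjusted threshold.

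The F/H type hnRNP proteins bind runs of G. HNRNPF was the most abundant per length, at 27.7 ± 3.83 CPM per kilobase in Con and 27.5 ± 2.07 in Ang, with 99.9, 94.5 and 76.1 CPM in Con and 84.5, 86.5 and 97.1 in Ang (-0.02 ± 0.18). HNRNPH1 had 193, 263 and 229 CPM in Con and 221, 234 and 222 in Ang (-0.02 ± 0.17). HNRNPH2 had 30.6, 31.8 and 34.0 CPM in Con and 32.6, 37.1 and 37.3 in Ang (0.15 ± 0.24). HNRNPH3 showed the widest Con group of the 4 for its level, with 47.7, 99.6 and 66.4 CPM in Con and 88.3, 75.1 and 82.3 in Ang (0.20 ± 0.19). Con replicate 2 was above all other libraries for HNRNPH3 while the other Con libraries were below all 3 Ang libraries. Its log2 fold change was -0.03 without Con replicate 1.

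HNRNPH1 and HNRNPH2 are near copies on chromosomes 5 and X, and the stretch with their longest identical run is shown because it bounds what short reads can separate. Over 1350 coding bases they differ at 167, are 87.6% identical and share no identical run over 50 bases when set base against base. The capitals mark the 9 differences within 120 bases, at chr5:179617859-179618034 on the minus strand, which includes an intron that is left out, and at chrX:101412730-101412849 on the plus strand.
HNRNPH1: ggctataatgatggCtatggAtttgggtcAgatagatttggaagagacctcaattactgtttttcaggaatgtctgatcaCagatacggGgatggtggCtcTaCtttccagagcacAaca
HNRNPH2: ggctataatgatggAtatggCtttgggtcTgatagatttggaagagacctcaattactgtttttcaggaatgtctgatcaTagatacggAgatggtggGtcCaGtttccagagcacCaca

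In the group of other hnRNP genes, 5 of 8 had a log2 fold change above 0 and all lay between -0.10 and 0.16. HNRNPK, which binds C-rich tracts in RNA and DNA, was the most abundant per length, at 46.4 ± 1.09 CPM per kilobase in Con and 47.5 ± 6.89 in Ang. Exons of HNRNPK-AS1 on the other strand lie across from 6.04% of its exon bases. Among genes of this group free of such overlap HNRNPC was the highest, at 35.9 ± 2.29 and 37.6 ± 2.41 CPM per kilobase. HNRNPK had 230.6, 241 and 240 CPM in Con and 216, 283 and 230 in Ang, a log2 fold change of 0.04 ± 0.17. HNRNPU, a nuclear scaffold protein, had 735, 754 and 812 CPM in Con and 724, 739 and 761 in Ang (-0.05 ± 0.17). HNRNPC, which binds U tracts and keeps U2AF2 off cryptic sites, had 263 ± 16.8 and 275 ± 17.6 CPM (0.06 ± 0.17). HNRNPM, which is known to favour mesenchymal splicing of CD44 in breast cancer cells, had 77.7, 86.2 and 72.7 CPM in Con and 70.4, 69.3 and 84.6 in Ang (-0.08 ± 0.19). HNRNPL, a reader of CA repeats, had 37.6, 72.0 and 41.5 CPM in Con and 48.4, 55.2 and 56.3 in Ang (0.07 ± 0.21). As with HNRNPH3, Con replicate 2 was the highest and the other Con libraries the lowest. HNRNPR, a relative of SYNCRIP, had 115 ± 6.36 and 107 ± 19.97 CPM. Of the relatives of HNRNPU, HNRNPUL1 had 171, 228 and 214 CPM in Con and 219, 222 and 232 in Ang (0.14 ± 0.17), and HNRNPUL2 had 19.2, 24.7 and 17.6 CPM in Con and 20.2, 25.0 and 24.0 in Ang (0.16 ± 0.28).

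Of the branch point and 3′ splice site factors, SF3B1, the U2 particle protein that holds the branch point, was the most abundant per length, at 18.8 ± 1.99 CPM per kilobase in Con and 20.8 ± 1.55 in Ang. It had 182, 184 and 151 CPM in Con and 206, 190 and 177 in Ang (0.15 ± 0.17). SF1, which recognises the branch point first, had 74.1, 103 and 82.4 CPM in Con and 83.0, 97.3 and 82.9 in Ang (0.02 ± 0.18). U2AF2, which binds the pyrimidine tract, had 47.9, 77.8 and 52.8 CPM in Con and 71.0, 50.2 and 58.3 in Ang (-0.00 ± 0.20). In all 3 of these genes the groups overlapped.

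U2AF1, the partner of U2AF2 that reads the last bases of the intron, had 1, 6 and 9 counts in Con and 10, 2 and 4 in Ang. That is 0.211 to 2.93 CPM, where a count of 0 allows up to 3 counts, or 0.552 to 0.890 CPM before TMM scaling, at the 95% level for counting error alone. Without molecular identifiers, several reads can be PCR copies of 1 molecule. ENSG00000275895, a second copy in the GRCh38 build at chr21:6484623-6499261, had 12, 10 and 1 counts in Con and 4, 0 and 11 in Ang. Both loci are on the minus strand of chromosome 21 in GRCh38, and their coding sequences of 723 bases are the same at every base. Of the 50-base words of U2AF1, 94.3% also occur in other genes. The first 120 coding bases are printed once, since those of the copy are the same. In U2AF1 they span chr21:43104327-43107494 and in the copy chr21:6496005-6499172, with introns left out.
U2AF1: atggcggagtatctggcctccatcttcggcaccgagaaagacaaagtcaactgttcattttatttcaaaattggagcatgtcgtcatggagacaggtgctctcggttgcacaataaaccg
A read that lies wholly within such a stretch has at least 2 equal places in the GRCh38 build. Whether the genome of these cells holds both copies was not tested. The sources used here do not say how the aligner and the counter treated such reads, and their part in the low counts was not tested. The level of U2AF1 RNA in these cells can therefore not be taken from these counts.

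The other regulators act on exons of particular tissues, and 5 of 7 had a log2 fold change above 0. PTBP1, a repressor that binds CU-rich tracts, was the most abundant per length, at 15.3 ± 1.38 CPM per kilobase in Con and 17.2 ± 1.67 in Ang. It had 102, 116 and 97.8 CPM in Con and 121, 106 and 128 in Ang (0.17 ± 0.18). Its relative PTBP3 had 37.6, 30.8 and 25.2 CPM in Con and 34.9, 35.8 and 30.3 in Ang (0.11 ± 0.24). CELF1, which binds GU-rich elements and is known for its part in myotonic dystrophy, had 30.4, 41.1 and 43.1 CPM in Con and 50.2, 51.9 and 44.8 CPM in Ang. All Ang libraries lay above all Con libraries, the nearest being Con replicate 3 and Ang replicate 3. The log2 fold change of CELF1 was 0.36 ± 0.22, with an interval of the fold of 0.952 to 1.73 and an unadjusted p of 0.101 by edgeR. It was 0.22 without Con replicate 1.

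MBNL1 and MBNL2, the muscleblind proteins that oppose CELF1 on many exons, had overlapping groups. MBNL1 had 41.8, 45.5 and 45.6 CPM in Con and 34.6, 53.2 and 39.3 in Ang (-0.06 ± 0.22). MBNL2 had 51.3, 49.7 and 48.4 CPM in Con and 40.2, 52.7 and 52.6 in Ang (-0.04 ± 0.21). RBFOX2, a driver of mesenchymal exon choice, had 62.5, 83.0 and 51.6 CPM in Con and 76.3, 63.0 and 61.2 in Ang (0.02 ± 0.19). QKI, which also binds introns of mesenchymal exons and promotes circular RNAs, had 40.8 ± 4.92 and 46.1 ± 10.8 CPM (0.18 ± 0.22).

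Related genes were also compared within each library, which does not depend on how libraries are scaled. For 12 pairs the log2 ratio of CPM was taken, with 0.1 CPM added to each value, and tested by a two-sided exact permutation test over 20 splits, whose smallest possible p is 0.1. SRSF4 over SRSF6 had log2 ratios of 1.44, 0.97 and 1.25 in Con and 1.92, 1.92 and 1.91 in Ang. The 3 Ang ratios were nearly equal and above all Con ratios, a difference of 0.69 (exact p 0.1, adjusted p 0.6 over the 12 pairs). SRSF2 over SRSF8 had 1.98, 1.99 and 1.39 in Con and 2.16, 2.61 and 3.24 in Ang, a difference of 0.88 (exact p 0.1, adjusted p 0.6). These are the pairs that contain the SR genes with the smallest p above, so they are the same counts seen another way. In the closest stretch SRSF6 and SRSF4 are 82.5% identical, with 21 differences in 120 bases.

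The other 10 pairs overlapped between groups, with an exact p of at least 0.3 and an adjusted p of 0.9. TRA2A over TRA2B had -1.20, -1.11 and -0.49 in Con and -0.23, -0.72 and -0.60 in Ang, a difference of 0.42 (exact p 0.3). HNRNPA1 over HNRNPA2B1 differed by 0.16, HNRNPH1 over HNRNPH2 by -0.15, SRSF1 over SRSF9 by -0.25 and SRSF3 over SRSF7 by 0.18. HNRNPD over HNRNPDL, HNRNPUL1 over HNRNPUL2, PTBP1 over PTBP3 and MBNL1 over MBNL2 differed by -0.04 to 0.05. U2AF1 over U2AF2 differed by 0.37, with an SD of 1.57 among the Con ratios. With 3 libraries in each group these tests cannot reach 0.05.

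**Figure D4:**
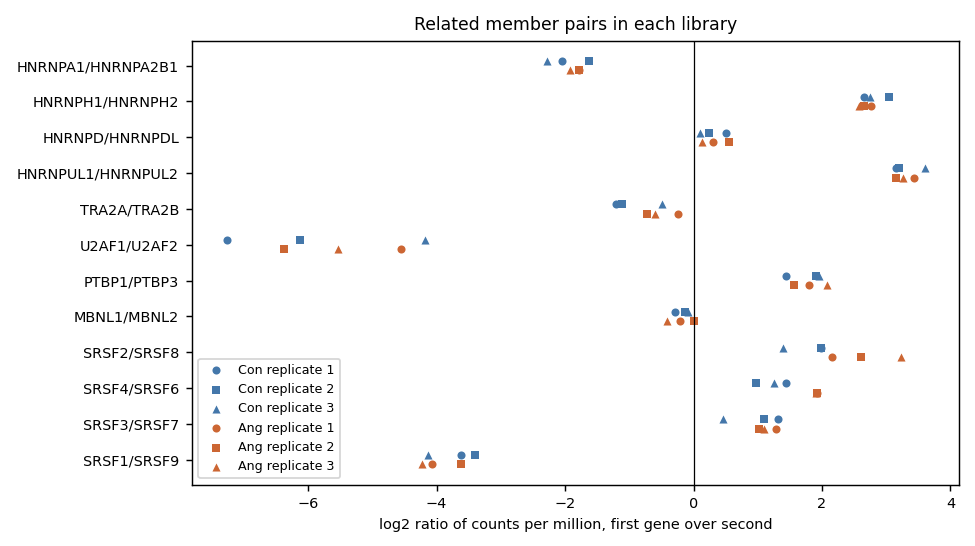
Log2 ratio of TMM-scaled CPM (0.1 added) for 12 pairs of related splicing regulators, first gene over second, in each library. Con is blue, Ang is orange and shapes give the replicate. The Ang marks of SRSF4/SRSF6 lie together near 1.92, to the right of the Con marks, and those of SRSF2/SRSF8 also lie to the right.

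Exons of other genes lie across from many members, and the labels' protocol names no step that marks strand. Yet the counts per base of the 2 strands were far from equal. Over the 250 gene pairs described above, the non-coding gene held a median of 23.2 to 41.1 times those of the coding gene. The sources used here do not say which strand of reads the counts hold, and whether they hold mostly the other strand was not tested. The level given for a member or marker, with or without such overlap, is therefore uncertain as a level of its own RNA. So is each ranking by level, and each difference between groups read as one of that RNA. Of the 43 members 15 had exon bases under exons on the other strand, shared with 17 loci, 9 of them protein-coding. The coverage was 46.2% of exon bases for SRSF9, 36.7% for SRSF2, 15.6% for HNRNPU, 15.6% for MBNL1 and 13.2% for SRSF1. In all 6 libraries 10 of the loci held more counts per base than the member across from them. The median level was 27.4 CPM per kilobase for members with such overlap and 9.98 for those without.

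Among the non-coding loci, HNRNPK-AS1 had the most counts per base against its member, 31.1 to 55.7 times those of HNRNPK over the libraries. It had 979, 571 and 809 CPM in Con and 760, 679 and 792 CPM in Ang. ENSG00000279069, across from SRSF1, had 22.5 to 47.0 times the counts per base of SRSF1. The ratio was 9.02 to 13.9 for ENSG00000279827 across from HNRNPM, and 4.69 to 10.9 for ENSG00000267523 across from U2AF2. For HNRNPK, SRSF1, HNRNPM and U2AF2 the lowest ratio was in Con replicate 2. The protein-coding partners with more counts per base in every library were TGFB1 across from HNRNPUL1, MFSD11 across from SRSF2, PTPMT1 across from CELF1, COX20 across from HNRNPU, RUFY2 across from HNRNPH3 and GATC across from SRSF9. None of the 15 tested loci passed the edgeR threshold between Ang and Con, and with the non-coding loci added to their members 0 members were called. Such a sum can be mostly the locus and does not test the member alone. The median ratio of counts, locus over member, was 16.6 for SRSF1 and 3.40 for HNRNPK. Neither SRSF6, SRSF8 nor TRA2A has an exon of another gene across from it, and for CELF1 such exons cover 2.24% of its exon bases.

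Coding stretches of SRSF1 and HNRNPK are shown because they lie across from the non-coding loci with the highest ratios. The capitals mark bases that lie under an exon of the locus on the other strand, ENSG00000279069 for SRSF1 and HNRNPK-AS1 for HNRNPK. The SRSF1 stretch of 120 bases spans chr17:58006498-58007033 and the HNRNPK stretch of 74 bases spans chr9:83975462-83977024, both on the minus strand of GRCh38 with an intron left out.
SRSF1: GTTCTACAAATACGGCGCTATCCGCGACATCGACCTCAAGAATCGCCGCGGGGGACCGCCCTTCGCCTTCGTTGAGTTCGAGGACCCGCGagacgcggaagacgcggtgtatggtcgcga
HNRNPK: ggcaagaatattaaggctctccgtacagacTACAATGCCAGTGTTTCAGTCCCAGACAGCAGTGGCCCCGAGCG
In SRSF1 the longest run of coding bases under ENSG00000279069 is 194 of 762 long, and in HNRNPK 44 of 1395 coding bases lie under HNRNPK-AS1.

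**Figure D5:**
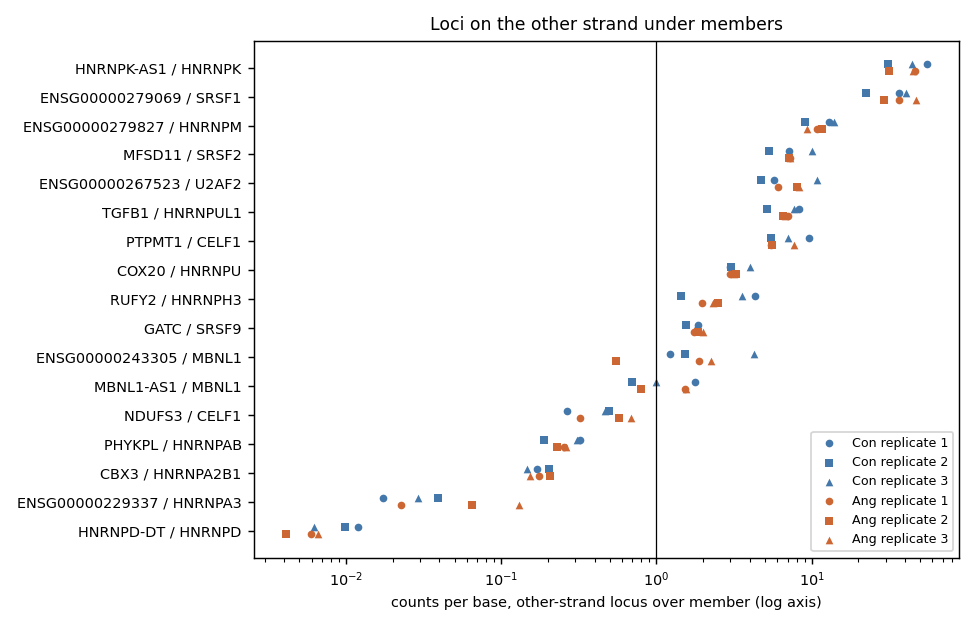
Counts per base of 17 loci on the other strand divided by counts per base of the splicing regulator across from them, in each library, on a log axis. Con is blue, Ang is orange, shapes give the replicate, and the line marks equal counts per base. The upper 10 loci lie to the right of the line in all 6 libraries.

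The members were often highest in Con replicate 2, the library that stood apart. It was the highest for 15 of the 43 members, where 19.9% of all tested genes were highest there. Over the 42 tested members the median SD of log2 CPM was 0.19 in Con and 0.13 in Ang, against 0.34 and 0.26 over all tested genes and 0.25 and 0.12 over genes of at least 50 CPM. Without Con replicate 2 still 0 members were called, where 0.269% of genes were. At an unadjusted p under 0.05 there were then 5 members, against 11.0% of genes. These were HNRNPH3 (0.53 ± 0.18, adjusted p 0.177 by edgeR), SRSF6 (-0.56 ± 0.23), HNRNPL (0.44 ± 0.21), SRSF5 (0.32 ± 0.16) and SRSF8 (-0.85 ± 0.42). The groups then did not overlap for 15 of 42 members, 12 of them higher in Ang, beside 27.3% of genes in either direction and 13.5% with higher values. Leaving out Con replicate 1 gave 7 such members beside 15.6% of genes, and Con replicate 3 gave 10 beside 18.6%. For the Ang replicates it was 8, 9 and 8 members, each beside 16.0% of genes. The median log2 fold change of the members was 0.08 without Con replicate 2, with 26 of 42 above 0. With the strand ratio of each library as a term in the fit of all 6 libraries, the log2 fold change was -0.68 for SRSF6, -0.84 for SRSF8, 0.30 for HNRNPH3, 0.19 for HNRNPL and 0.13 for HNRNPA0, against -0.72, -0.84, 0.20, 0.07 and 0.02 without the term. The fit with the term called 0 members and 0.0275% of genes. Without Con replicate 1, 0 members and 0.00668% of genes were called.

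The wider splicing pathway was read from 5 further lists, in which 0 genes were called. Of 35 proteins of the small nuclear ribonucleoproteins, the core of the spliceosome, 26 had a log2 fold change above 0, with a median of 0.10, and 3 had Ang libraries all above the Con libraries, where over all genes 49.2% were above 0 and 3.62% had Ang libraries all above. SNRPA1, a U2 particle protein, had 32.7, 27.6 and 15.7 CPM in Con and 34.0, 45.9 and 39.0 in Ang (0.63 ± 0.24, unadjusted p 0.0107 by edgeR). LSM5, of the ring that binds U6 RNA, had 16.2 ± 3.06 and 26.1 ± 5.79 CPM (0.69 ± 0.28). Of 19 assembly factors and helicases 15 were above 0, with a median of 0.11, led by SNW1 (61.7 ± 2.76 and 76.2 ± 10.01 CPM) and DDX23 (23.1 ± 9.76 and 30.4 ± 4.25 CPM).

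Of 9 kinases that phosphorylate SR proteins or work beside them, 5 were above 0, with a median of 0.01. PRPF4B, a kinase of the spliceosome, had 102, 94.5 and 95.9 CPM in Con and 75.7, 71.9 and 65.6 in Ang. All Ang libraries of PRPF4B lay below all Con libraries (-0.46 ± 0.18, unadjusted p 0.0142 and adjusted p 0.999 by edgeR). CLK1, which releases SR proteins from speckles, had 60.6 ± 8.14 and 67.3 ± 15.5 CPM. Among 25 tested of 32 further regulators 14 were above 0, with a median of 0.02, and SRRM2 (293 ± 53.7 and 346 ± 12.8 CPM) and RBM39 (180 ± 6.57 and 155 ± 27.2 CPM) had the smallest p. For nonsense-mediated decay 10 of 14 genes were above 0, with a median of 0.10. Its helicase UPF1 had 36.7, 36.0 and 20.1 CPM in Con and 41.4, 36.8 and 52.0 in Ang (0.47 ± 0.23), where Ang replicate 2 and Con replicate 1 were almost equal. EIF4A3, of the exon junction complex, had 38.5 ± 7.88 and 50.8 ± 4.66 CPM. The summed level of the small nuclear ribonucleoprotein list was highest in Con replicate 2, at 1895 CPM, against 1400 to 1750 CPM in the other libraries.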

How the data were processed

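RNA of 6 libraries of MDA-MB-231 cells was sequenced after selection on poly-T beads, fragmentation, random priming and 15 PCR cycles, per the labels' protocols. The authors deposited read counts, as whole numbers, for each Ensembl gene ID. HTSeq 0.9.1 and DESeq 1.39.0 were named, per the submitters' processing notes, with build GRCh38. The sources used here do not give the aligner, annotation release and strand setting. Reads that match several genes equally could be lost or moved by such choices.

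From these counts, genes were kept by filterByExpr, scaled by TMM and tested with edgeR 4.0.16 (robust quasi-likelihood, R 4.3.3), Benjamini-Hochberg threshold 0.05, without a replicate term. No 2 libraries of a group agreed within sampling noise (chi-square per gene 3.60 to 12.8). Symbols matched 28918 gene IDs and GENCODE 29 matched 28192. GENCODE 29 (GRCh38) gave exons, union exon lengths and sequences. Overlaps on the other strand were found with bedtools 2.31.1, and shared words of 50 bases were counted on the transcripts. For ratios of loci on the other strand 0.5 was added to each count. The fits were tested on simulated counts. No row lacked a gene.

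Members, role groups, pathway lists, markers and pairs were chosen with earlier results of these data known. Library values are given for the 8 members with the smallest p, the most abundant per length of each role group and the paired members, further members being added after their values were seen. In each pathway list the 2 genes with the smallest p were named. Alternatives were RLE scaling, other filters, a replicate block, DESeq2 1.42.0, limma-voom 3.58.1, a strand ratio term, genes free of overlap, unscaled CPM for pairs and leaving out each library. Summing non-coding loci into members was added after seeing the data. The sequence of 1 related locus is not reported here.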

Additional observations from a re-analysis of the deposited data

How the results depend on the processing

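Members called were 0 in each alternative run. Pairs with an adjusted p under 0.05 were also 0, which was fixed in advance, since with at most 3 libraries in each group the exact permutation test cannot reach 0.05. All genes called were 0, except 4 with the strand ratio term and 0 to 40 when 1 library was left out, of which 40 came without Con replicate 2 and 1 without Con replicate 1, for causes that were not tested. Leaving out 1 library gave 0 to 0 members called, 1 to 5 members with an unadjusted p under 0.05, 7 to 15 members not overlapping and medians of -0.04 to 0.08. The 7 to 15 compare 3 libraries with 2, where 15.6% to 27.3% of all genes did not overlap. SRSF6 was lower in Ang in 15 of 15 settings, from -0.81 to -0.56, with adjusted p of 0.301 to 1.0. SRSF8 was lower in 15 of 15, from -1.11 to -0.62, with adjusted p of 0.442 to 1.0. Both genes had every Ang library below every Con library, so refits of the same counts could hardly change the sign. The kept sign is therefore no added support. Of 615 member values under alternatives 552 kept direction and side of the threshold and 63, of 21 members, changed sign without a call. Of 96 pair values 11 changed sign. The deviations of same-numbered Con and Ang libraries correlated at 0.050, 0.112 and 0.049, and those of other pairs at -0.109 to 0.055. These values do not settle whether the numbers pair libraries. No label says that they do, and the main fit therefore had no replicate term. The replicate block gave 0 genes, 0 members, 2 members with an unadjusted p under 0.05, 4 not overlapping and a median of -0.01. Of the tested members SRSF8 had the fewest counts, 261.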
